A study of Mus musculus with 6 samples.

Results

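AP-1 is a family of dimeric transcription factors, and 10 genes that encode AP-1 proteins or their close relatives were followed here in the mouse melanoma line D4M-3A with and without a knockout of Nfkbiz. The genes were chosen by name (Jun, Junb, Jund, Fos, Fosb, Fosl1, Fosl2, Atf3, Batf3 and Maff), and all 10 were found among the 43043 genes listed for every sample. The choice of these genes, and of the related lists below, was made with earlier results of these data known. Counts of calls among them are therefore not independent evidence. RNA sequencing covered 3 control (Ctrl) samples and 3 Nfkbiz knockout (Nfkbiz KO) samples. Both groups were grown in RPMI-1640 with 10% FCS and antibiotics, with no stimulus named. Ctrl cells had received an empty CRISPR-Cas9 construct by lentiviral transduction, and Nfkbiz KO cells a construct directed at Nfkbiz. Whether the KO cells are 1 clone or a mixed population is not given in the sources used here, and p-values measure the spread between these samples.

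AP-1 proteins share a basic region that contacts DNA and a leucine zipper through which they pair. JUN proteins can pair with each other or with FOS proteins, whereas FOS proteins need a partner from outside their own group. ATF, BATF and small MAF proteins have the same kind of domain and join the network as further partners. Several of these genes are immediate-early genes, whose transcripts rise within minutes of a growth or stress signal and decay quickly, and AP-1 is known in melanoma for its link to invasive, dedifferentiated cell states. Nfkbiz encodes IκBζ, a nuclear co-factor of NF-κB, so the comparison asks which AP-1 transcripts differed in cells in which its gene was targeted.

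The promoters give a first view of where the sequences of AP-1 sites and NF-κB sites lie near these genes. RefSeq promoters of GRCm38.p6, from 250 bases before to 50 bases after each start, were available for 9 of the 10 genes, Fosl1 being the exception. On either strand, a kB motif was found for 4 of these 9 genes, Fos, Fosb, Fosl2 and Maff, and for 9.55% of all 27025 genes with a promoter. The 250 bases before the start held 58.4% to 68.8% G and C in the promoters with this match, against a median of 52.4% over all promoters. Member promoters without the match ranged from 47.6% (Jund) to 76% (Batf3), so a high share was not particular to those with it. TGACATCA, the AP-1 site variant known from the Jun promoter and chosen after the other motifs, was found for Jun and Maff and for 4.18% of all genes. TGACGTCA, the site bound by CREB and ATF proteins, was found in 1 further Maff promoter and for 2.03% of all genes. The classical site TGANTCA was found for 0 of the 9 genes and for 8.97% of all, and the CArG box bound by SRF for 0 and for 1.81%. Sites more than 250 bases before a start were not searched, so these counts do not cover them. Each window of 30 bases below is written along the gene, with the motif in capitals, and is shown because these are the matches among the members. In Fosl2 matches on both strands overlap.
Fos, chr12:85473666-85473695, plus strand: ggaaggtctaGGAGACCCCCtaagatccca
Fosb, chr7:19310214-19310243, minus strand: acgcagccttGGGGACCCCCgagaccccca
Fosl2, chr5:32136281-32136310, plus strand: gatcggggaGGGAGTCCCCCagagctgcca
Jun, chr4:95052249-95052278, minus strand: aagcctcggggTGACATCAtgggctatttt
Maff, chr15:79347480-79347509, plus strand: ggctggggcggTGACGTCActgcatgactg
Maff, chr15:79348322-79348351, plus strand: tgttgtctctGGAGTTTCCCctggctggag
Maff, chr15:79348346-79348375, plus strand: ctggagccatgTGACATCAgtgtttgttcc
A match describes the letters of the window and does not show binding. Fosb, with a match to the kB motif, rose in Nfkbiz KO cells, Fosl2 and Maff fell, and Fos did not pass the test, as described below.

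The targeted gene was lower in every Nfkbiz KO sample. Nfkbiz had 69.1, 75.2 and 63.4 TPM (a level corrected for transcript length and sequencing depth) in Ctrl replicates 1 to 3. In the Nfkbiz KO replicates it had 34.8, 34.7 and 35.1 TPM, so its transcript was still read in the knockout. The paper checked IκBζ protein in these cells by immunoblot and reports an efficient depletion. RNA counts do not measure that protein. Samples held between 32219900 and 44927203 reads counted on genes, and 3 reads, the limit that a count of 0 allows, correspond to 0.0668 to 0.0931 CPM (counts scaled to sequencing depth), counting error only. Over all genes, counts differed more between Ctrl samples than between Nfkbiz KO samples. Chi-square per degree of freedom between pairs of samples was 25.8 to 65.9 in Ctrl and 3.41 to 5.89 in Nfkbiz KO. Single AP-1 genes went both ways: the SD of TPM was 11.6 in Ctrl and 21.5 in Nfkbiz KO for Jun, and 29.8 and 19.5 for Jund. Of 8 melanocyte lineage markers, the defining genes Sox10 and Tyr had 0 reads in all samples, and the 8 summed to 1.31 to 1.8 TPM in Ctrl and 1.27 to 1.98 TPM in Nfkbiz KO. The 8 fibroblast markers summed to 1010 to 1120 TPM in Ctrl and 848 to 896 TPM in Nfkbiz KO, with 4 of 6 tested called lower (Col1a1, Col1a2, Col3a1 and Dcn), against 18.4% of all genes tested. Most of this sum came from the collagen genes Col1a1, Col1a2 and Col3a1 (Ctrl means of 367, 203 and 402 TPM). Pdgfra and Pdgfrb did not pass the test (log2 fold changes of 0.002 and 0.05). Lum had at most 1 read in a sample and Thy1 at most 4. Immune cell markers (8 genes, at most 4.05 TPM summed, Cd3e and Nkg7 at 0 reads), keratinocyte markers (6 genes, at most 3.49 TPM, Krt1 at 0 reads) and endothelial markers (5 genes, at most 1.86 TPM) were near absent, although the endothelial marker Cdh5 was called higher, going from 0.548 ± 0.139 to 1.54 ± 0.313 TPM (SD, n = 3, adjusted p = 0.0023 from edgeR). Their part in the AP-1 results was not tested, and in bulk RNA fewer cells of a type and less RNA per cell cannot be told apart.

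Of the 10 AP-1 genes, 4 rose in Nfkbiz KO cells (Jun, Fosl1, Fosb and Atf3), 4 fell (Junb, Jund, Fosl2 and Maff) and 2 did not pass the test (Fos and Batf3). Tests were made on read counts with edgeR's quasi-likelihood test and Benjamini-Hochberg adjustment over all 14419 genes that passed a filter on low counts, which all 10 passed. At an adjusted p of 0.05 or less, 36.6% of all genes tested were called, 18.2% as higher and 18.4% as lower in Nfkbiz KO. On log2(TPM + 1) with limma the split over all genes was 3004 higher and 1327 lower, against 2627 and 2647 on counts, and Fosl2 was no longer called. The groups did not overlap in CPM for the same 8 genes, against 48.4% of all genes tested, and for a single gene the exact permutation test of 3 samples against 3 cannot go below p = 0.1.

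The changes were moderate in size. Among the called genes, levels by the edgeR fit rose by 26.2% to 38.6% or fell by 20.9% to 35.1%. None of the 10 passed the study's threshold (more than 2-fold at an adjusted p of at most 0.05, with the means more than 4 apart, taken as TPM), which 1.79% of all genes tested passed, while 8 of the 10 had an unadjusted p of 0.05 or less, as did 44.8% of all genes tested. With 1.5-fold as the least change and 0.1 as the highest adjusted p, 1 gene passed, Jund, against 12.6% of all genes tested.

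**Figure D1:**
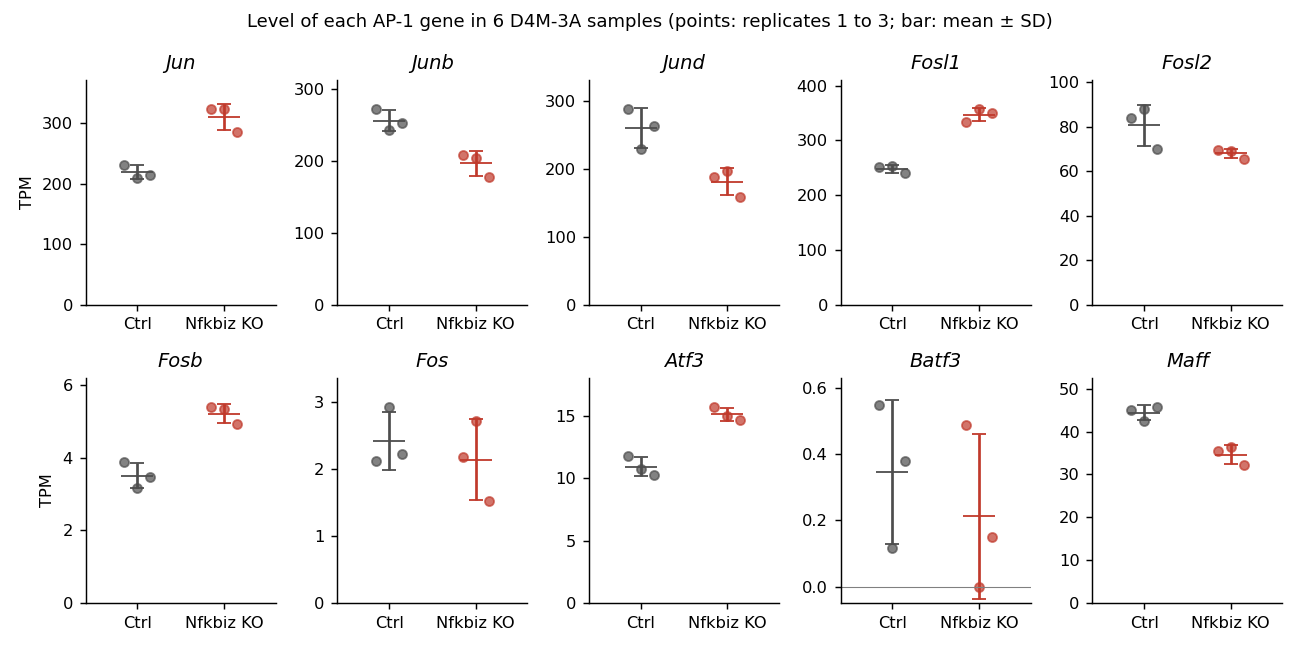
TPM (vertical axis, linear) of each AP-1 gene in 3 Ctrl (grey) and 3 Nfkbiz KO (red) samples, with points for replicates and bars for the mean ± SD. Jun, Fosl1, Fosb and Atf3 lie higher in all Nfkbiz KO samples, Junb, Jund, Fosl2 and Maff lie lower, and the groups of Fos and Batf3 overlap.

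Among the JUN genes, Jun rose while Junb and Jund fell. Jun, which encodes c-Jun, the founding member and a strong activator, is a single-exon gene on the minus strand of chromosome 4 (GRCm39, 94937271 to 94940459). Its level was 232, 210.3 and 214 TPM in Ctrl replicates 1, 2 and 3 and 324, 324 and 287 TPM in Nfkbiz KO replicates 1, 2 and 3, so the lowest KO sample lay well above the highest Ctrl sample. The log2 fold change in Nfkbiz KO over Ctrl on counts was 0.41 (standard error 0.068, 95% interval 0.26 to 0.56, adjusted p = 0.00048 from edgeR), or 33.0% higher. The annotation places a long non-coding RNA gene, Junos, on the other strand across the whole of Jun. Junos, named for this overlap after its values were seen, had 892, 1059 and 1070 reads in Ctrl and 1685, 2109 and 2345 reads in Nfkbiz KO, with a log2 fold change of 0.99 (adjusted p = 8.3e-08 from edgeR). Reads were counted on both strands together, so strand does not separate those of Jun and Junos where the genes overlap. Jun itself had 7243 to 9025 reads in Ctrl and 9285 to 11546 in Nfkbiz KO. Of the reads on Jun 99.8% were listed as uniquely mapped, and of those on Junos 94.9%. On uniquely mapped reads the log2 fold change of Jun was 0.41 as well (adjusted p = 0.00025 from edgeR). How far Junos adds to the count of Jun was not tested.

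Junb encodes JunB, which can oppose c-Jun at some promoters. It lies on chromosome 8 from 85701113 to 85705359 on the minus strand. Its TPM was 272, 244 and 252 in Ctrl and 209, 205 and 177 in Nfkbiz KO, and every KO sample was below every Ctrl sample. The log2 fold change of Junb was -0.48 (standard error 0.074, 95% interval -0.64 to -0.32, adjusted p = 0.00029 from edgeR). The annotation lets Prdx2 on the other strand overlap 1 end of Junb, and Prdx2 also fell (log2 fold change -0.42, adjusted p = 0.00018 from edgeR). Of the reads on Junb, 100% were listed as uniquely mapped, and the fit on such reads gave -0.48 as well (adjusted p = 0.00011 from edgeR). Strand does not separate the reads of Junb and Prdx2 where they overlap, and how far Prdx2 adds to the count of Junb was not tested.

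Jund, which encodes JunD, the member usually expressed in resting cells, had the largest fall among the 8 called genes. It lies on the same chromosome as Junb, from 71151599 to 71153265 on the plus strand. Ctrl samples had 288, 228 and 263 TPM and Nfkbiz KO samples 188, 196 and 159 TPM, without overlap although the Ctrl samples spread widely. Its log2 fold change was -0.62 (standard error 0.10, 95% interval -0.84 to -0.41, adjusted p = 0.0004 from edgeR). Jund has the most GC-rich transcript of the 10, at 67.2%, followed by Batf3 at 62.8% and Junb at 62.6%, with the others between 51.9% and 58.5%. With the trend of fold change on GC content over all genes removed, an alternative chosen after seeing the data, the log2 fold change of Jund was -0.40 (adjusted p = 0.00017) and that of Junb -0.33 (adjusted p = 0.00029), both still called by edgeR. Of the reads on Jund, 79.5% were uniquely mapped, and on these its log2 fold change was -0.62 as well (adjusted p = 0.0001 from edgeR).

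**Figure D2:**
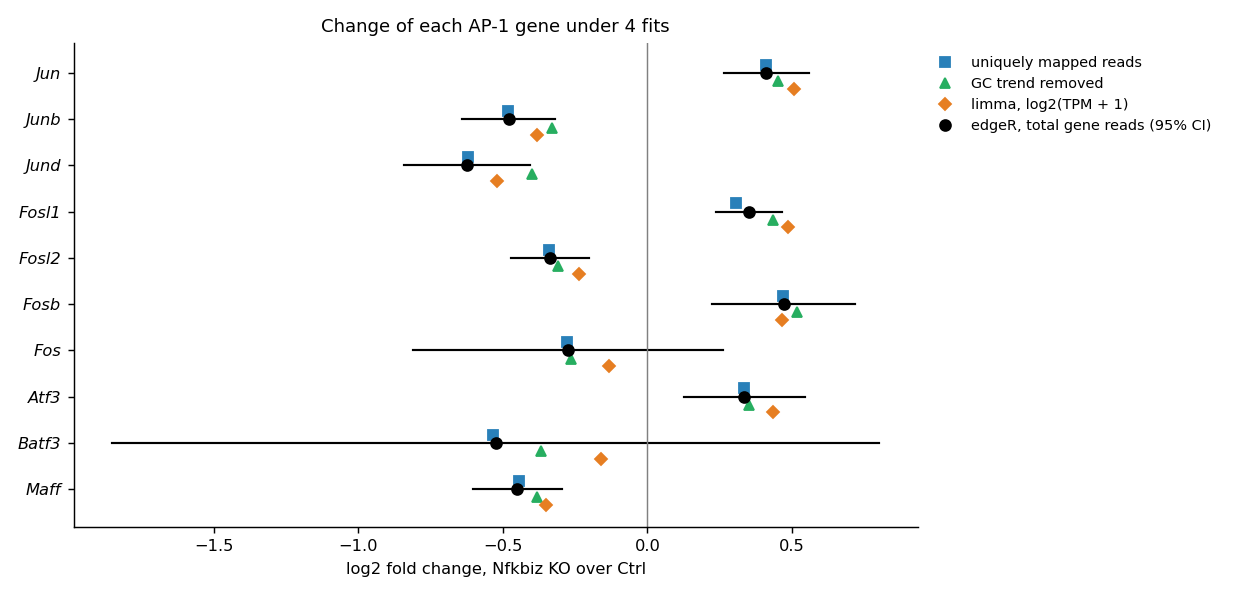
Log2 fold change in Nfkbiz KO over Ctrl (horizontal axis) of each AP-1 gene from edgeR on total gene reads (black, with 95% interval), on uniquely mapped reads (blue), with the GC trend removed (green) and from limma on log2(TPM + 1) (orange). The 8 called genes keep their sign in all 4 fits, Jund moves from -0.62 to -0.40 without the GC trend, and the intervals of Fos and Batf3 include 0.

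Since TPM is corrected for length, the JUN genes can be set against each other within a sample. Jun was the lowest of the 3 by mean in Ctrl and the highest in Nfkbiz KO. It made up 29.3% to 30.8% of the summed TPM of Jun, Junb and Jund in Ctrl and 44.7% to 46.1% in Nfkbiz KO. Junb went from 34.4% to 35.7% in Ctrl to between 28.2% and 28.98% in Nfkbiz KO, and Jund from 33.4% to 36.3% to between 25.5% and 27.03%. The ratio of Jun to Junb in TPM was 0.852, 0.863 and 0.849 in Ctrl and 1.55, 1.58 and 1.62 in Nfkbiz KO, so the order of the pair was reversed in every sample. The ratio of Jun to Jund likewise went from 0.807, 0.922 and 0.815 to 1.73, 1.65 and 1.81. The sum of the 3 genes changed less, with 682 to 792 TPM in Ctrl and 622 to 724 TPM in Nfkbiz KO, ranges that overlap. These shares describe the same values that were tested gene by gene and were given no test of their own.

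Among the FOS genes, Fosl1 and Fosb rose, Fosl2 fell and Fos did not pass the test. Fosl1 encodes FRA-1, a FOS protein that lacks the strong activation domain of c-Fos and is known for its high level in invasive tumor cells. It lies on chromosome 19 from 5497575 to 5505974 on the plus strand. Fosl1 had 251, 253 and 239 TPM in Ctrl and 334, 357 and 350.1 TPM in Nfkbiz KO, with little spread in either group. The log2 fold change on counts was 0.35 (standard error 0.052, 95% interval 0.24 to 0.47, adjusted p = 0.00022 from edgeR), and limma on log2(TPM + 1) gave 0.49 (adjusted p = 0.00088). Only 50.3% of the reads on Fosl1 were uniquely mapped, the lowest share among the members, and on these alone the log2 fold change was 0.31 (adjusted p = 0.0027 from edgeR). The end of Fosl1 overlaps Ccdc85b on the other strand, which went the other way (log2 fold change -0.39, adjusted p = 0.0065 from edgeR). How far Ccdc85b adds to the count of Fosl1 was not tested.

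Fosl2 encodes FRA-2, the closest relative of FRA-1, and is found on chromosome 5 from 32292707 to 32315186 on the plus strand. It had 83.8, 87.9 and 70.1 TPM in Ctrl and 69.5, 68.9 and 65.6 TPM in Nfkbiz KO, and Ctrl replicate 3 almost met the highest KO sample. On counts the log2 fold change was -0.34 (standard error 0.062, 95% interval -0.47 to -0.20, adjusted p = 0.0011 from edgeR). On TPM the fall was not called, at -0.24 on the log2(TPM + 1) scale (adjusted p = 0.1 from limma).

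Fosb and Fos were expressed at a small part of the level of Fosl1. Fosb, an immediate-early gene on chromosome 7 from 19036621 to 19043976 on the minus strand, had 3.88, 3.17 and 3.47 TPM in Ctrl and 5.38, 5.33 and 4.92 TPM in Nfkbiz KO. Its log2 fold change was 0.47 (standard error 0.114, 95% interval 0.22 to 0.72, adjusted p = 0.0064 from edgeR), the largest rise among the members on total gene reads. Fos, which encodes c-Fos, lies on chromosome 12 from 85520658 to 85524047 on the plus strand, and its counts were low, at 51, 74 and 69 reads for Ctrl and 46, 71 and 45 reads for Nfkbiz KO. In TPM these samples stood at 2.11, 2.91 and 2.22 against 2.18, 2.71 and 1.51, and the groups overlapped. The log2 fold change of Fos was -0.28 with a 95% interval from -0.81 to 0.26 (adjusted p = 0.42 from edgeR), so that no difference was detectable in these samples.

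Fosl1 therefore made up most of the FOS transcripts in both groups, and more so in Nfkbiz KO. Its share of the summed TPM of the 4 FOS genes was 72.9% to 76.0% in Ctrl and 81.3% to 83.0% in Nfkbiz KO, while that of Fosl2 was 22.2% to 25.3% and 15.5% to 16.9%. The ratio of Fosl1 to Fosl2 was 2.99, 2.88 and 3.42 in Ctrl and 4.81, 5.19 and 5.34 in Nfkbiz KO. Unlike the JUN sum, the FOS sum did not overlap between groups, at 315 to 347 TPM in Ctrl and 411 to 434 TPM in Nfkbiz KO.

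**Figure D3:**
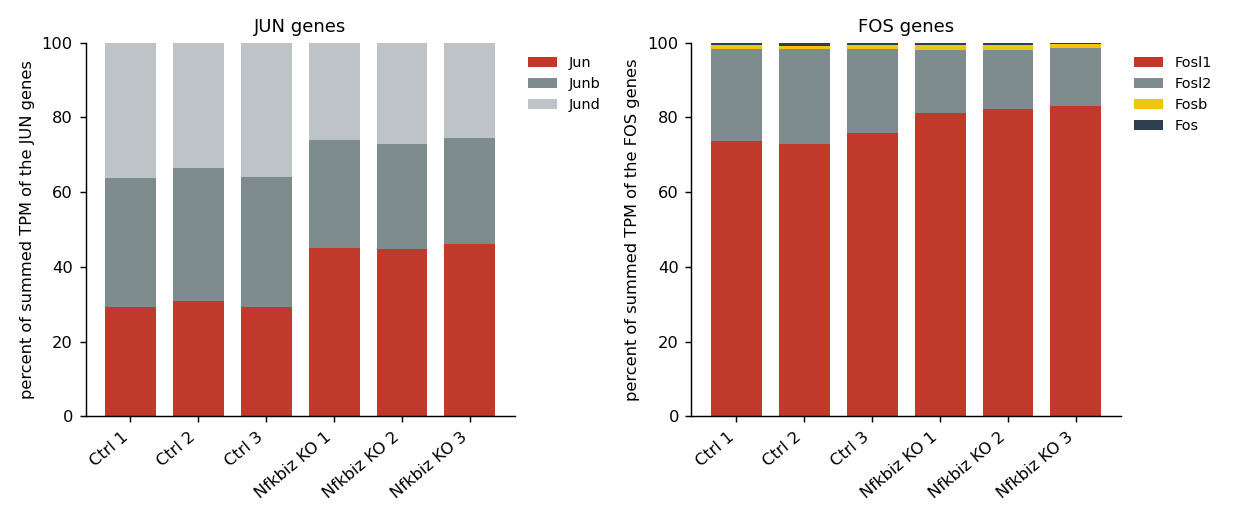
Share (vertical axis, percent) of each JUN gene in the summed TPM of the JUN genes (left) and of each FOS gene in that of the FOS genes (right), 1 stacked bar per sample. Jun goes from at most 30.8% in Ctrl to at least 44.7% in Nfkbiz KO, and Fosl1 from at most 76.0% to at least 81.3%.

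The partners outside the JUN and FOS groups went in different directions. Atf3, a stress-induced factor that pairs with JUN proteins, lies on chromosome 1 from 190902493 to 190950241 on the minus strand. It had 11.8, 10.8 and 10.3 TPM in Ctrl and 15.7, 15.03 and 14.7 TPM in Nfkbiz KO, without overlap. The log2 fold change of Atf3 was 0.34 (standard error 0.097, 95% interval 0.13 to 0.55, adjusted p = 0.017 from edgeR), the highest adjusted p of the 8, and without Nfkbiz KO replicate 1 it was 0.32 and no longer called (adjusted p = 0.061).

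Maff encodes MafF, a small MAF protein without an activation domain of its own. It lies on chromosome 15 from 79230821 to 79243276 on the plus strand. Ctrl samples had 45.1, 42.6 and 45.7 TPM and Nfkbiz KO samples 35.5, 36.3 and 32.1 TPM, and its log2 fold change was -0.45 (standard error 0.071, 95% interval -0.60 to -0.30, adjusted p = 0.00035 from edgeR). The level of Maff was thus lower in each KO sample than in any Ctrl sample, while Atf3 went from 18.2% to 20.5% of the summed TPM of Atf3, Batf3 and Maff to between 29.3% and 31.2%.

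Batf3, known for its need in the development of a class of dendritic cells, was near the limit of detection. This gene, next to Atf3 on chromosome 1 from 190830044 to 190841142 on the plus strand, had 10, 4 and 12 reads for Ctrl and 10, 4 and 4 reads for Nfkbiz KO. It stood at 0.548, 0.116 and 0.379 TPM in Ctrl and 0.488, 0 and 0.149 TPM in Nfkbiz KO, with the 4 reads of Nfkbiz KO replicate 2 listed at 0 TPM, which was computed from exon reads. Its 95% interval ran from -1.85 to 0.80 on the log2 scale (adjusted p = 0.55 from edgeR), which allows large changes either way.

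The order of levels shows how the set differed between the groups as a whole. In Ctrl, Jund, Junb and Fosl1 led by mean TPM with ranges that overlapped from each to the next, followed by Jun. In Nfkbiz KO, Fosl1 led at 347 ± 11.8 TPM (SD, n = 3), then Jun at 312 ± 21.5 TPM, then Junb and Jund, which overlapped each other at 197 ± 17.2 and 181 ± 19.5 TPM. The place of Fosl1 in both orders, and its share of the FOS genes, rest on TPM values of a gene for which 50.3% of reads were uniquely mapped, and how many of its other reads belong to it was not tested. From Fosl2 downwards the order was the same in both groups, namely Fosl2, Maff, Atf3, Fosb, Fos and Batf3, and no gene of that order overlapped its neighbour within a group. Summed over the 10 genes, TPM was 1083 to 1190 in Ctrl and 1091 to 1210 in Nfkbiz KO, ranges that overlap almost fully. Within this total, the FOS genes went from 28.6% to 32.1% in Ctrl to between 34.8% and 38.7% in Nfkbiz KO, and the JUN genes from 63.0% to 66.6% to between 57.0% and 60.9%.

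Among further partners with the same kind of DNA-binding domain, more genes rose than fell. Of the 14 such genes tested, 6 rose, 1 fell and 7 did not pass the test, with a median log2 fold change of 0.12 against -0.02 over all genes tested, of which 18.2% were called higher and 18.4% lower. Batf2, a BATF relative known as interferon-induced, went from 1.08 ± 0.280 TPM in Ctrl to 6.92 ± 0.712 TPM in Nfkbiz KO (SD, n = 3), a log2 fold change of 2.39 (adjusted p = 3.2e-07 from edgeR). Creb5, an ATF2-like factor, went from 1.94 ± 0.175 to 3.93 ± 0.242 TPM (log2 fold change 0.87, adjusted p = 7.9e-07), and Mafk, a small MAF like Maff, from 26.5 ± 2.42 to 41.4 ± 0.480 TPM (0.55, adjusted p = 6.3e-05, both from edgeR). Maff and Mafk thus moved in opposite directions. Maf, a large MAF factor, fell from 3.25 ± 0.500 to 1.92 ± 0.188 TPM (log2 fold change -0.81, adjusted p = 0.0012 from edgeR).

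Most of the kinases and factors that act on AP-1 genes and proteins were not called. Of 23 genes for the JNK, p38 and ERK kinases, SRF and its partners, MEF2 and CREB, 1 rose, 5 fell and 17 did not pass the test, with a median log2 fold change of -0.06. Called genes thus made up 26.1% of the list against 36.6% of all genes tested, and fallen genes 21.7% against 18.4%. The count of risen genes was 0 without Nfkbiz KO replicate 2 and 2 without Ctrl replicate 2, and the count of fallen genes was 3 without Nfkbiz KO replicate 1. Map2k7, an activator of JNK, was the risen gene (29.3 ± 1.03 to 37.0 ± 2.95 TPM, log2 fold change 0.23, adjusted p = 0.018 from edgeR), with 65.2% of its reads uniquely mapped. Rps6ka1, which encodes the ERK-activated kinase RSK1, fell furthest, from 7.95 ± 1.16 to 2.58 ± 0.159 TPM (log2 fold change -1.66, adjusted p = 7.1e-07 from edgeR). Mapk3, which encodes ERK1, and Elk3, an SRF partner, fell slightly, with log2 fold changes of -0.27 (adjusted p = 0.0038) and -0.21 (adjusted p = 0.0058, both from edgeR). Of 6 genes for proteins that degrade AP-1 proteins or their transcripts, 1 rose and 5 did not pass the test (median log2 fold change 0.08), and without Ctrl replicate 2 the count was 2. It was Zfp36, which encodes tristetraprolin, a protein that speeds the decay of AU-rich transcripts (23.7 ± 0.178 to 33.6 ± 0.489 TPM, log2 fold change 0.41, adjusted p = 0.00022 from edgeR).

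Other immediate-early genes were called in both directions, in numbers that depended on the scale. Of 29 such genes 27 were tested, of which 7 rose, 10 fell and 10 did not pass the test (median log2 fold change 0.13 against -0.02 over all genes tested). Both shares of calls were above those of all genes tested, 18.2% higher and 18.4% lower, but on log2(TPM + 1) with limma 10 rose and 5 fell. Risen genes included the factors Egr1 (73.3 ± 4.62 to 103 ± 1.76 TPM, log2 fold change 0.40, adjusted p = 5.9e-05) and Klf4 (82.2 ± 2.48 to 117 ± 7.26 TPM, 0.40, adjusted p = 0.00024, both from edgeR). Dusp5, which encodes an ERK phosphatase, had the largest of the named rises, from 98.8 ± 9.82 to 148 ± 2.91 TPM (log2 fold change 0.49, adjusted p = 0.00013 from edgeR). Ier3, which the study itself lists for these cells, fell from 626 ± 33.4 to 409 ± 25.6 TPM (log2 fold change -0.72, adjusted p = 5e-06 from edgeR). The matricellular genes Ccn1 and Ccn2 fell with log2 fold changes of -0.59 (adjusted p = 3.2e-06) and -0.50 (adjusted p = 0.00017, both from edgeR).

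Genes known as AP-1 targets changed in both directions. All 29 were tested, of which 9 rose, 13 fell and 7 did not pass the test, with a median log2 fold change of -0.06, against 18.2% of all genes tested called higher and 18.4% called lower. On log2(TPM + 1) with limma 11 rose and 10 fell, and with the GC trend removed 12 rose and 13 fell. The list contains 5 genes that the study also picked from these samples (Mmp3, Plau, Il11, Il6 and Csf2). The whole list was chosen with earlier results of these data known, so none of its counts is independent evidence. Among the secreted proteases, Mmp3 (stromelysin) fell from 503 ± 50.7 to 280 ± 20.5 TPM (log2 fold change -0.94, adjusted p = 9.2e-07) and Plau (urokinase) rose from 112 ± 4.84 to 180 ± 2.93 TPM (0.58, adjusted p = 2.2e-06, both from edgeR). Among the cytokines, Csf2 went from 54.7 ± 7.16 to 16.0 ± 1.39 TPM (log2 fold change -1.90, adjusted p = 3.3e-07) and Il6 from 22.6 ± 3.63 to 9.97 ± 0.880 TPM (-1.28, adjusted p = 1.4e-06, both from edgeR), whereas Il11 rose from 4.42 ± 0.745 to 14.3 ± 1.48 TPM (1.47, adjusted p = 7.7e-06 from edgeR). Cd44, the hyaluronan receptor, rose from 228 ± 16.2 to 357 ± 12.2 TPM (log2 fold change 0.54, adjusted p = 1.3e-05 from edgeR).

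**Figure D4:**
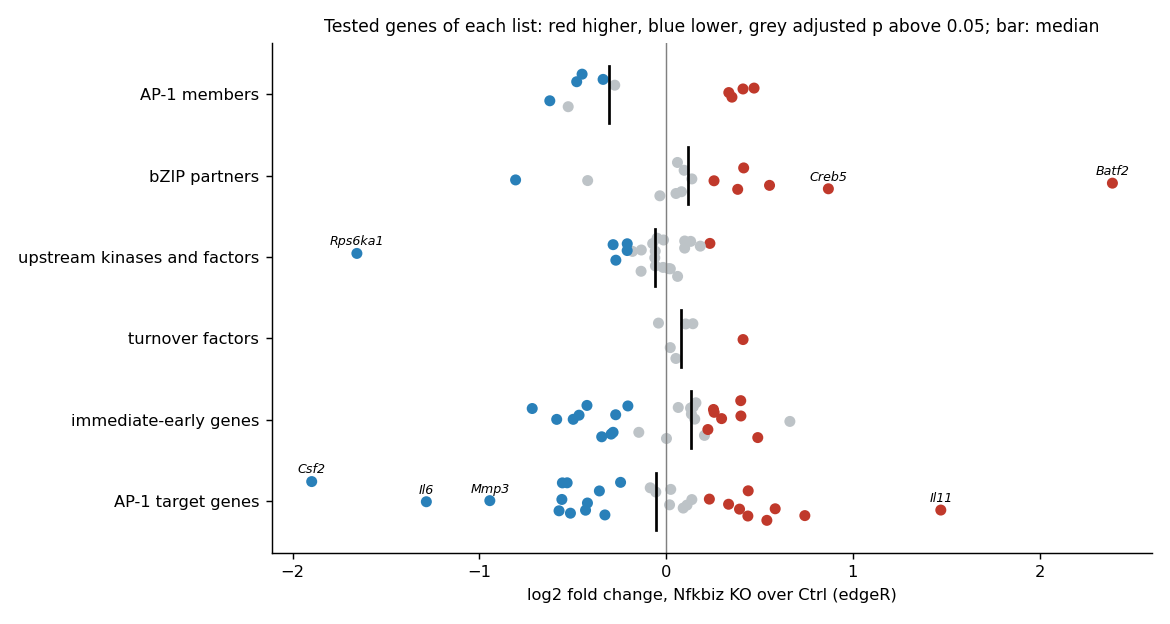
Log2 fold change in Nfkbiz KO over Ctrl (horizontal axis) of each tested gene of the AP-1 set and of 5 related lists, 1 point per gene and a bar at each median. Red and blue points passed the test as higher and lower, grey points did not, and Batf2 at 2.39 and Csf2 at -1.90 mark the ends of the range.

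The genes whose pattern over the 6 samples was most like that of the members with the smallest adjusted p were read as a description, since samples of 2 groups make high correlations common. For Fosl1 they were 4930523C07Rik, Hdgfl3 and Taok3 (Pearson r of log2 CPM of 0.9986, 0.9985 and 0.9975), and 809 genes tested had an r above 0.95. For Junb they were Clk3, Ier5 and Il3ra (0.9995, 0.9975 and 0.9967), and 421 genes had an r above 0.95.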

How the data were processed

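RNA of 3 Ctrl and 3 Nfkbiz KO samples of D4M-3A cells was sequenced as paired reads. Read mapping by the authors used CLC Genomics Workbench v24.0 with default settings, counting pairs as 1 on both strands. Their methods name GRCm39, whereas the submitters' processing notes name GRCm38; the deposited tables hold no coordinates, so positions are those of GENCODE M39 on GRCm39. For each gene the authors deposited the total and the uniquely mapped counts of gene reads, not normalized, and TPM and RPKM values computed from exon reads, written with decimal commas that were converted. The RPKM values served only 1 alternative.

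Total gene reads were tested with edgeR 4.0.16 in R 4.3.3 by the quasi-likelihood test with TMM factors, filterByExpr (minimum count of 10, minimum total of 15) and Benjamini-Hochberg adjustment over 14419 genes. Samples had 32219900 to 44927203 gene reads, 96.5% to 96.9% of them uniquely mapped, and within each group no samples were duplicates. Same-numbered replicates did not deviate together (r of -0.02 to 0.04). The script was tested on simulated data. Named genes are all members, Nfkbiz, and from each list the 3 genes with the smallest adjusted p in each direction; other genes are named for an overlap. The members and lists were chosen with earlier results of these data known. Alternatives were RLE and upper-quartile factors, DESeq2 1.42.0, the edgeR likelihood-ratio test, other filters, uniquely mapped reads, limma 3.58.1 on log2(TPM + 1) and log2(TPM + 0.1), a replicate block, each sample left out in turn, RPKM or no difference in the study threshold, and, chosen after seeing the data, offsets for GC content and transcript length, which had values for 96.2% of the genes tested. Protein sequences were not analysed here.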

Additional observations from a re-analysis of the deposited data

How the results depend on the processing

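Under the alternatives 433 values were recomputed, for the members, the lists and the count over all genes. A reversal of sign was defined only for the log2 fold changes of the members, and 0 of these reversed. In limma on log2(TPM + 1) the balance of calls shifted for the immediate-early genes, from 7 risen and 10 fallen to 10 and 5. For the AP-1 target genes it went from 9 risen and 13 fallen to 11 and 10. Among the members, Fosl2 was no longer called in limma on log2(TPM + 1), at -0.24 (adjusted p = 0.1), or on log2(TPM + 0.1), at -0.24 (adjusted p = 0.11), and Atf3 was not called without Nfkbiz KO replicate 1 (adjusted p = 0.061), its log2 fold change lying between 0.297 and 0.393 as each sample was left out. The other calls held in every alternative run, and without Ctrl replicate 1 all 8 held; Batf3 was not tested under the filter on a CPM of at least 1. The count of risen kinases and upstream factors was 2 without a filter on low counts, 2 with the replicate block and 2 with the length offset, and 0 to 2 as each sample was left out. The count of fallen ones was 2 in limma on log2(TPM + 1) and 2 on log2(TPM + 0.1), and 3 to 6 with a sample left out. For the turnover factors the count of risen genes was 2 in each of these limma fits, and 1 to 2 with a sample left out, and for the immediate-early genes the count of fallen genes was 5 in each. The cause was not tested. With a replicate block 5087 genes were called against 5274 without it, and gene by gene 1 call changed among the members and these 5 lists, Mef2a being gained (adjusted p = 0.049); the samples share only a number. Fos and Batf3 had low counts, and whether depth or spread between samples limits them was not tested.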
